A study of Mus musculus with 6 samples.

Results

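Transcripts of 4 antioxidant enzymes were followed in cultured mouse bone marrow stroma: the superoxide dismutases Sod1, Sod2 and Sod3, and catalase, Cat. They were taken from the deposited table by gene symbol, and all 4 were present among its 22984 genes. Each library held messenger RNA of bone marrow mesenchymal stem cells, plastic-adherent stromal progenitors that give rise to bone, cartilage and fat. There were 3 libraries of Grx2-/- cells and 3 of Grx2+/+ cells. Grx2 is glutaredoxin 2, a mainly mitochondrial thiol-disulfide oxidoreductase encoded by Glrx2, and the comparison asks what its loss does to the transcriptome. The submitters' design text names the cells O-BMSCs without explaining the prefix. The sources used here do not give the strain, sex, age, culture passage or the construction of the knockout. Nor do they tie replicates to separate animals or cultures, so each p-value reflects the spread among these 6 libraries, which may be technical.

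Superoxide dismutases turn superoxide into hydrogen peroxide and oxygen, and catalase breaks hydrogen peroxide down to water and oxygen. The dismutases are divided by compartment: Sod1 is the copper- and zinc-containing enzyme of the cytosol and the mitochondrial intermembrane space, Sod2 the manganese enzyme of the mitochondrial matrix, and Sod3 a secreted copper and zinc enzyme that binds heparan sulfate in the extracellular matrix. Catalase is a heme enzyme of the peroxisome.

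The stretches of 250 bases before the transcription start are shown for the 3 members found in the promoter table (RefSeq, GRCm38.p6), because all 4 transcripts moved the same way and these are the stretches that lie next to their starts. Sod1 was read from chr16:90220512-90220761 on the plus strand, Sod2 from chr17:13007589-13007838 on the plus strand and Cat from chr2:103485154-103485403 on the minus strand. Capitals mark matches, on either strand, to the GC box GGGCGG, the CCAAT box CCAAT, the TATA box TATAAA, the core of the antioxidant response element TGACNNNGC, to which NRF2 binds, and the FOXO core GTAAACA.
Sod1: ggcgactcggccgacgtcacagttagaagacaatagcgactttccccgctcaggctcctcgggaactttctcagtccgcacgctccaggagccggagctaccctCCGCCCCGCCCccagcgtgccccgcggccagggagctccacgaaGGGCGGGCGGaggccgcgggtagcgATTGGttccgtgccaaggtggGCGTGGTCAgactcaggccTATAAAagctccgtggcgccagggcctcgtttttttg
Sod2: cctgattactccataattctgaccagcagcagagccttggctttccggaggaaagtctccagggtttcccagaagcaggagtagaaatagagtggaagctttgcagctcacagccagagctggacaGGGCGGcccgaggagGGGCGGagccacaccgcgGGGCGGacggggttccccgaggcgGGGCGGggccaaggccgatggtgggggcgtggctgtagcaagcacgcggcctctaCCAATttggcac
Cat: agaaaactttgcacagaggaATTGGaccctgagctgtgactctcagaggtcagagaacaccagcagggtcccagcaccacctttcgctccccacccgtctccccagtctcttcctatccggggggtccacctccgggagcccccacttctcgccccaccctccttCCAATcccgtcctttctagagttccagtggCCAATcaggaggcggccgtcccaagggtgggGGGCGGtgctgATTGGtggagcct

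The Sod1 stretch held 4 GC boxes in 2 overlapping pairs, 1 CCAAT box, 1 TATA box and, on the opposite strand, 1 match to the antioxidant response core, whose bases lie 56 to 48 before the start. The Sod2 stretch held 4 separate GC boxes and 1 CCAAT box. In Cat there were 1 GC box and 4 CCAAT boxes. No match to the FOXO core lay in any of the 3 windows, and no matches to different motifs overlapped. Of 32851 windows of the same length in the table, 32.7% held a GC box, 33.8% a CCAAT box, 12.4% a TATA box, 10.2% the antioxidant response core and 3.17% the FOXO core. GC content was 66.4% before Sod1, 63.6% before Sod2 and 62% before Cat, against a median of 52.4% over all windows. The files hold no measurement of binding, so the matches are a description of the letters only.

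Expression was deposited as FPKM, fragments per kilobase of gene scaled to library depth. Whole reads could be worked back from the values and gave depths of 41011482 to 41794919 reads in Grx2-/- libraries and 40797879 to 41435761 reads in Grx2+/+ libraries. As a check of the labels, Glrx2 had 1, 0 and 0 reads in Grx2-/- replicates 1 to 3, against 756, 800 and 761 reads in Grx2+/+ replicates 1 to 3. Stromal identity was only partly shared by the groups. Col1a1 and Col1a2 were abundant in all 6 libraries, while Lepr, a marker of marrow stroma, averaged 0.0351 ± 0.00477 FPKM in Grx2-/- cells and 3.83 ± 0.564 FPKM in Grx2+/+ cells (SD, n = 3 each). Nt5e was likewise lower, at 2.1 ± 0.253 FPKM in Grx2-/- cells and 10.8 ± 0.472 FPKM in Grx2+/+ cells (SD, n = 3 each). Col1a1, Col1a2, Pdgfrb and Eng were also called lower in the test described below. Their log2 fold changes were -0.80, -0.89, -0.39 and -0.33. For 3 other stromal markers the order was the opposite. Thy1 averaged 167 ± 2.97 FPKM in Grx2-/- cells and 11.9 ± 2.12 FPKM in Grx2+/+ cells, Vcam1 56.8 ± 6.94 FPKM in Grx2-/- cells and 15.3 ± 0.526 FPKM in Grx2+/+ cells, and Pdgfra 22 ± 3.66 FPKM in Grx2-/- cells and 7.7 ± 0.357 FPKM in Grx2+/+ cells (SD, n = 3 each). Genes were tested where the mean over the 6 libraries was at least 1 FPKM, which 11083 genes reached, all 4 members among them. Tests used limma on log2(FPKM + 1), two-sided, with Benjamini-Hochberg adjustment over all tested genes and a threshold of 0.05. Fold changes are Grx2-/- over Grx2+/+, and the added 1 understates the change of low genes.

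All 4 transcripts were higher in Grx2-/- cells, and for each the 3 Grx2-/- libraries lay above the 3 Grx2+/+ libraries. Sod3 showed the largest difference of the 4, 8.59-fold in mean FPKM, followed by Cat at 2.11-fold, Sod2 at 1.72-fold and Sod1 at 1.46-fold. This count has to be read against the whole table, in which 67.4% of tested genes were called, 42.7% as higher and 24.6% as lower. For 73.1% of tested genes the library values of both groups were separate, with Grx2-/- on top for 45.7% and Grx2+/+ on top for 27.4%. A call as higher was thus common in the table, and whether 4 of 4 departs from that share was not tested. Calls with a log2 fold change of at least 1 in the upward direction made up 6.49% of tested genes and included Sod3 and Cat. For Cat this depended on the scaling, since its log2 fold change was 0.96 with median-of-ratios scaling and 0.93 with quantile normalization.

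**Figure D1:**
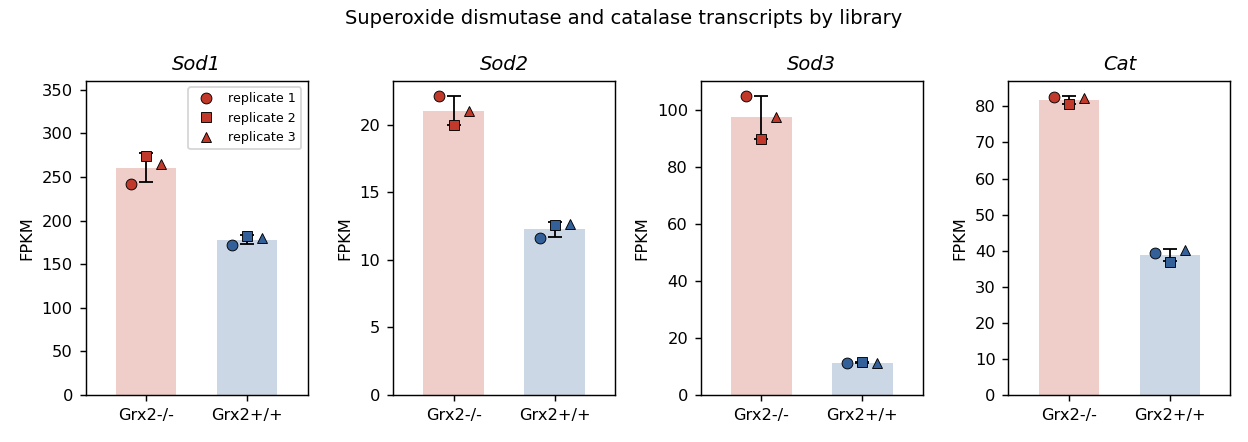
FPKM (vertical axes, each starting at 0) of Sod1, Sod2, Sod3 and Cat in Grx2-/- libraries on the left and Grx2+/+ libraries on the right of each panel. Bars are group means, error bars 1 SD (n = 3), and symbols single libraries. In every panel the lowest Grx2-/- library lies above the highest Grx2+/+ library, by 1.33-fold for Sod1 and 7.71-fold for Sod3.

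Sod1, the cytosolic enzyme, had the highest level per length of the 4 in both groups. In reads it was not the highest in Grx2-/- libraries, which held 6451, 7196 and 6915 reads of Sod1 in replicates 1 to 3, against 8810, 8469 and 8604 of Cat. Its level was 242, 274 and 265 FPKM in Grx2-/- replicates 1 to 3, against 172, 182 and 180 FPKM in Grx2+/+ replicates 1 to 3. Replicate 1 was the lowest library of each group, and the groups did not overlap. Means were 260.5 ± 16.5 FPKM in Grx2-/- cells and 178 ± 5.64 FPKM in Grx2+/+ cells (SD, n = 3 each). The log2 fold change was 0.54 ± 0.050 (SE; 95% interval 0.43 to 0.66; limma adjusted p = 3.1e-05). By mean FPKM Sod1 ranked 222 of all genes listed in Grx2-/- cells and 314 in Grx2+/+ cells. Of tested genes, 15.2% had a larger log2 fold change.

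Sod2, the mitochondrial matrix enzyme, was expressed at a much lower level than Sod1. It stood at 22.1, 20 and 21.1 FPKM in Grx2-/- replicates 1 to 3, against 11.6, 12.6 and 12.6 FPKM in Grx2+/+ replicates 1 to 3. The 2 groups were clearly apart, and the values within each lay close together. Group means were 21.1 ± 1.09 FPKM in Grx2-/- cells and 12.3 ± 0.568 FPKM in Grx2+/+ cells (SD, n = 3 each), a log2 fold change of 0.73 ± 0.052 (SE; 95% interval 0.61 to 0.85; limma adjusted p = 6.65e-06). Its interval overlapped that of Sod1, and 10.3% of tested genes had a larger log2 fold change.

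Sod3, the secreted enzyme, had the greatest change. Its level was 105, 89.9 and 97.4 FPKM in Grx2-/- replicates 1 to 3, against 11.3, 11.7 and 11.1 FPKM in Grx2+/+ replicates 1 to 3. In reads this was 8958, 7566 and 8166 in the Grx2-/- libraries and 943, 982 and 937 in the Grx2+/+ libraries. Per length, its transcript lay above that of Cat in Grx2-/- cells, and near that of Sod2 in Grx2+/+ cells. Reads gave another order, with 8810, 8469 and 8604 of Cat in Grx2-/- replicates 1 to 3. Sod2 had 1813, 1981 and 2002 reads in Grx2+/+ replicates 1 to 3. In reads Sod3 was thus above Cat only in Grx2-/- replicate 1, and below Sod2 in every Grx2+/+ library. Means were 97.4 ± 7.46 FPKM in Grx2-/- cells and 11.3 ± 0.3 FPKM in Grx2+/+ cells (SD, n = 3 each). The log2 fold change was 2.99 ± 0.056 (SE; 95% interval 2.86 to 3.12; limma adjusted p = 9.93e-09), the 43rd largest of the tested genes. The spread of the Grx2+/+ libraries, a coefficient of variation of 2.64%, was no larger than the counting error of 3.19% to 3.27% that their reads allow.

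Cat, the peroxisomal enzyme that removes hydrogen peroxide, was at 82.6, 80.7 and 82.2 FPKM in Grx2-/- replicates 1 to 3, against 39.5, 37 and 40.2 FPKM in Grx2+/+ replicates 1 to 3. The Grx2-/- libraries were nearly level, and the lowest of them was 2.01 times the highest Grx2+/+ library. Means were 81.8 ± 1.04 FPKM in Grx2-/- cells and 38.9 ± 1.71 FPKM in Grx2+/+ cells (SD, n = 3 each). The log2 fold change was 1.06 ± 0.039 (SE; 95% interval 0.97 to 1.15; limma adjusted p = 1.98e-07), and 5.85% of tested genes had a larger one. The coefficient of variation among Grx2-/- libraries, 1.27%, was near the counting error of 1.07% to 1.09%.

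**Figure D2:**
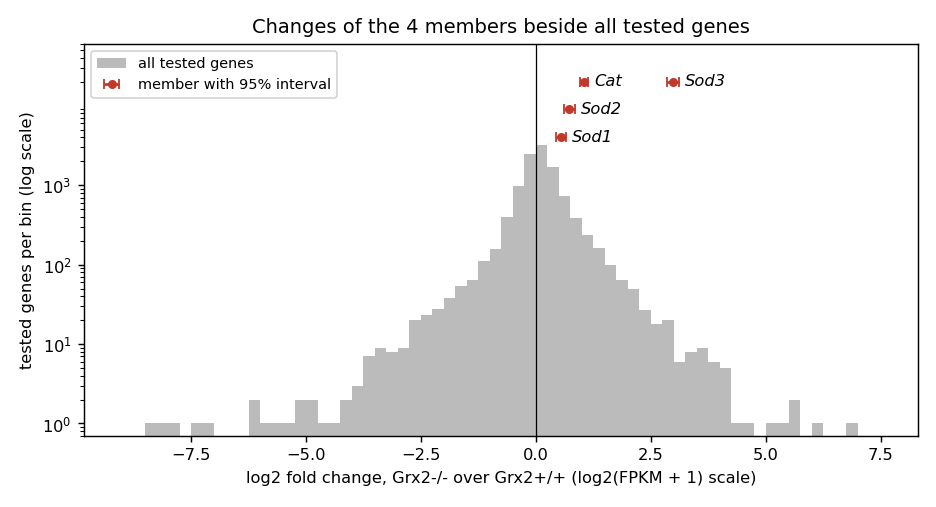
Number of tested genes per bin of log2 fold change (grey bars, vertical log axis, bins of 0.25), with the log2 fold change of each member and its 95% interval as red points, whose height has no meaning. The 4 members lie right of 0, Sod1 and Sod2 within the bulk of genes and Sod3 at 2.99 in the upper tail.

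Read per length, the order of the 4 transcripts differed between the groups. In Grx2-/- cells it was Sod1, Sod3, Cat and Sod2, with no overlap between neighbours in the library values. In Grx2+/+ cells it was Sod1, Cat, Sod2 and Sod3, and the ranges of Sod2 (11.6 to 12.6 FPKM) and Sod3 (11.1 to 11.7 FPKM) overlapped. Summed over the 3 dismutases, FPKM was 369, 384 and 383 in Grx2-/- replicates 1 to 3, against 195, 207 and 204 in Grx2+/+ replicates 1 to 3. Sod1 made up 68.7% ± 2.92 of this sum in Grx2-/- cells and 88.3% ± 0.0844 in Grx2+/+ cells (SD, n = 3 each). Sod3 made up 25.7% ± 2.51 in Grx2-/- cells and 5.62% ± 0.194 in Grx2+/+ cells (SD, n = 3 each). For Sod2 the shares were 5.56% ± 0.404 in Grx2-/- cells and 6.08% ± 0.111 in Grx2+/+ cells, and its library values overlapped between the groups. Of the difference in the sum, 48.6% came from Sod3, 46.5% from Sod1 and 4.96% from Sod2. This split was taken from FPKM, so it depends on the gene lengths, and it was not computed in reads. Shares of transcripts are not shares of enzyme, and activity was not measured.

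Relative to the dismutases, catalase moved in different directions. The ratio of Cat to Sod1 FPKM was 0.341, 0.294 and 0.311 in Grx2-/- replicates 1 to 3, against 0.23, 0.203 and 0.223 in Grx2+/+ replicates 1 to 3. Cat to Sod2 was 3.73, 4.04 and 3.9 in Grx2-/- libraries, against 3.39, 2.94 and 3.18 in Grx2+/+ libraries. Both ratios were thus higher in every Grx2-/- library. Cat to Sod3 was lower in every one, at 0.788, 0.897 and 0.845 in Grx2-/- libraries, against 3.49, 3.17 and 3.64 in Grx2+/+ libraries. Set against the summed dismutases the ratio was 0.216 ± 0.00706 in Grx2-/- cells and 0.193 ± 0.0125 in Grx2+/+ cells (SD, n = 3 each). That last difference depended on division by length: in plain reads the ratio was 0.469 in Grx2-/- cells and 0.541 in Grx2+/+ cells, the opposite order. The lengths implied by the authors' values were 637 bases for Sod1, 3824 for Sod2, 2045 for Sod3 and 2551 for Cat. No test was run on these shares and ratios.

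**Figure D3:**
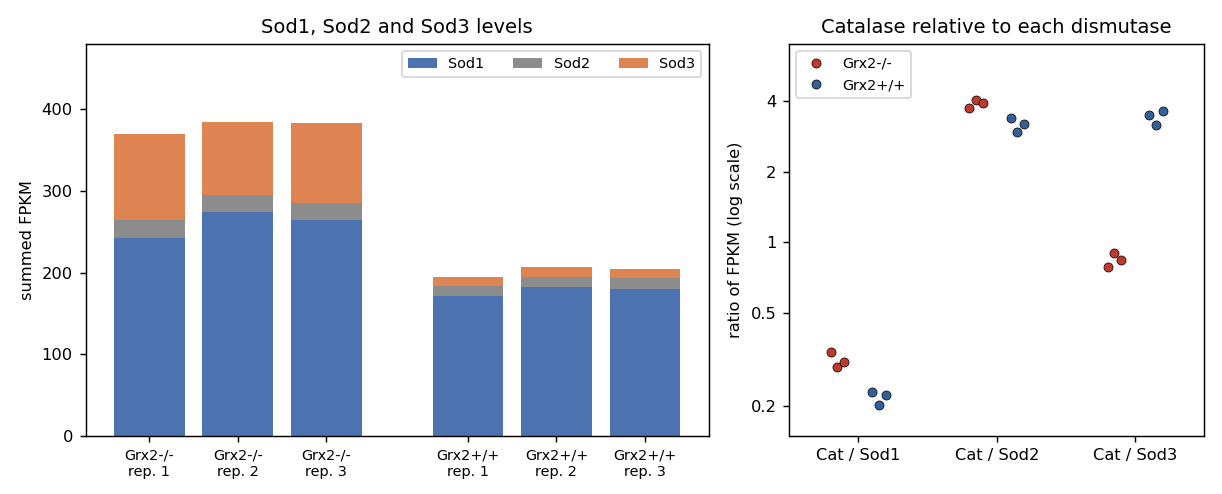
Left, FPKM of Sod1, Sod2 and Sod3 stacked per library (vertical axis from 0), Grx2-/- libraries before Grx2+/+ libraries. Right, ratio of Cat FPKM to that of each dismutase per library (log axis): Grx2-/- points lie above Grx2+/+ points for Sod1 and Sod2 and below them for Sod3, where they run from 0.788 to 0.897.

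The members did not all vary together among libraries of a group. In Grx2-/- cells replicate 1 had the lowest Sod1 (242 FPKM) and the highest Sod2 (22.1 FPKM), Sod3 (105 FPKM) and Cat (82.6 FPKM). Grx2-/- replicate 2 was the reverse for these genes, with the highest Sod1 and the lowest Sod2, Sod3 and Cat. Among all tested genes Grx2-/- replicate 1 and Grx2+/+ replicate 2 stood furthest from the other libraries of their groups. Without those 2 libraries the log2 fold changes were 0.61 for Sod1, 0.71 for Sod2, 2.96 for Sod3 and 1.01 for Cat, all still called.

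Expression of other cell types' markers also differed between the groups. Each count of calls below stands beside 42.7% higher and 24.6% lower of all tested genes. Macrophage markers were higher in Grx2-/- cells, with 9 of 10 called higher, 0 lower and a summed level of 793 to 969.6 FPKM in Grx2-/- libraries against 361 to 388 FPKM in Grx2+/+ libraries. None of them was at 0 in either group. Within the Grx2-/- group replicate 1 had the lowest macrophage sum, and also the lowest Sod1 but the highest Sod2, Sod3 and Cat. Neutrophil markers summed to 4.38 to 6.79 FPKM in Grx2-/- libraries and 918 to 2660 FPKM in Grx2+/+ libraries. Of the 8 markers tested, 6 averaged under 1 FPKM in Grx2-/- cells and passed the minimum only through Grx2+/+ libraries, so no count of calls is given. Ly6g and Retnlg were at 0 in every Grx2-/- library. Endothelial markers summed to 15.4 to 15.8 FPKM in Grx2-/- libraries and 33.6 to 39.4 FPKM in Grx2+/+ libraries, with Tie1 and Cldn5 at 0 in every Grx2-/- library. Pecam1, Cdh5, Emcn and Kdr likewise passed the minimum only through Grx2+/+ libraries, while Tek, below the minimum, averaged 0.609 ± 0.0483 FPKM in Grx2-/- cells and 0.265 ± 0.0168 FPKM in Grx2+/+ cells (SD, n = 3 each). Osteoblast markers summed to 619 to 655 FPKM in Grx2-/- libraries and 1410 to 1571 FPKM in Grx2+/+ libraries, and Ibsp and Bglap2 among them passed only through Grx2+/+ libraries. Smooth muscle markers, with 7 of 7 tested called lower, summed to 905 to 1460 FPKM in Grx2-/- libraries and 2677 to 2932 FPKM in Grx2+/+ libraries. Adipocyte markers summed to 238 to 254 FPKM in Grx2-/- libraries and 84.3 to 145 FPKM in Grx2+/+ libraries, with 3 of 5 tested higher and 1 lower. In Grx2-/- libraries most of that sum was Lpl, lipoprotein lipase, at 206 ± 8.77 FPKM in Grx2-/- cells and 51.8 ± 8.75 FPKM in Grx2+/+ cells (SD, n = 3 each). Without Lpl the order turned, with 37.8 to 38.4 FPKM in Grx2-/- libraries and 39.6 to 83.3 FPKM in Grx2+/+ libraries. The lower one, Fabp4, a fatty acid carrier of adipocytes, averaged 7.78 ± 0.953 FPKM in Grx2-/- cells and 31.8 ± 17.3 FPKM in Grx2+/+ cells (SD, n = 3 each; limma adjusted p = 0.00151). Its Grx2+/+ values were 17.2, 50.9 and 27.2 FPKM in replicates 1 to 3. Besides Lpl, Cebpa and Pparg were called higher, with log2 fold changes of 0.33 and 0.14 (limma adjusted p = 0.00117 and 0.0321). Of the stromal markers themselves 3 of 10 were higher and 6 lower, and Lepr among the lower ones passed the minimum only through Grx2+/+ libraries. The stromal markers summed to 4115 to 4800 FPKM in Grx2-/- libraries and 6810 to 7863 FPKM in Grx2+/+ libraries. Without Col1a1 and Col1a2 the order turned here too, with 376 to 426 FPKM in Grx2-/- libraries and 214 to 241 FPKM in Grx2+/+ libraries. The part of these differences in the levels of Sod1, Sod2, Sod3 and Cat was not tested. The 8 erythroid markers in the table summed to at most 0.209 FPKM in Grx2-/- libraries and 0.592 FPKM in Grx2+/+ libraries, and none reached the minimum for testing. In bulk libraries, fewer cells of a type and less RNA per cell cannot be told apart.

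Enzymes alone do not make active dismutase, since Sod1 and Sod3 need copper and Sod2 needs manganese. Of 11 tested genes of copper and manganese supply, 4 were higher, 2 lower and 5 not called. Over all tested genes 42.7% were higher and 24.6% lower. The list's median log2 fold change was 0.07 against 0.09 over all tested genes. Under either other scaling, by median of ratios or by quantiles, 3 of the list were higher and 5 lower. The shares over all tested genes were then 33.4% higher and 33.1% lower by median of ratios, and 30.8% and 35.6% by quantiles. Without rescaling, the list's lower count rested on single libraries. It was 0 without Grx2-/- replicate 2, Grx2+/+ replicate 2 or Grx2+/+ replicate 3, and 1 when any other library was left out. Ccs, the chaperone that loads copper into Sod1, averaged 26.3 ± 0.979 FPKM in Grx2-/- cells and 21.9 ± 0.693 FPKM in Grx2+/+ cells (SD, n = 3 each; log2 fold change 0.25, limma adjusted p = 0.00091). Atox1, which hands copper to the secretory pathway from which Sod3 receives it, averaged 131 ± 7.34 FPKM in Grx2-/- cells and 86 ± 4.17 FPKM in Grx2+/+ cells (SD, n = 3 each; log2 fold change 0.61, limma adjusted p = 1.9e-05). The copper transporter Slc31a2 was higher by 0.41 on the log2 scale (limma adjusted p = 0.00597). Atp7a, the pump that moves copper into that pathway, named after its value was seen, had a log2 fold change of -0.07 and was not called (limma adjusted p = 0.219).

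Sod3 acts in the matrix, where it is held by heparan sulfate proteoglycans. A list of 12 tested genes held such proteoglycans together with Fbln5 and Furin, which are not proteoglycans. Of these 12, 4 were higher, 5 lower and 3 not called. Furin, a protease named after its value was seen, was among the 5 lower. Over all tested genes 42.7% were higher and 24.6% lower. The list's median log2 fold change was -0.03 against 0.09 over all tested genes. Col18a1, the heparan sulfate-bearing collagen XVIII chain, averaged 54.3 ± 2.8 FPKM in Grx2-/- cells and 14.7 ± 0.21 FPKM in Grx2+/+ cells (SD, n = 3 each; log2 fold change 1.82, limma adjusted p = 3.13e-08). The cell surface syndecan Sdc4 was higher by 1.49 on the log2 scale (limma adjusted p = 4.71e-07), while Sdc3 had a log2 fold change of -0.58 (limma adjusted p = 1.04e-06). Fbln5, a matrix protein that binds Sod3, was named after its value was seen, and its log2 fold change was 0.83 (limma adjusted p = 6.04e-06). With either other scaling 4 of the list were higher and 6 lower, beside the shares over all tested genes given above for each scaling.

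Catalase works inside peroxisomes, so genes that build the organelle and genes of its oxidases were set beside it. Of 18 tested peroxisome biogenesis genes, 6 were higher, 2 lower and 10 not called, beside 42.7% higher and 24.6% lower of all tested genes. The list's median log2 fold change was 0.08 against 0.09 over all tested genes. Pxmp4, a peroxisomal membrane protein, was higher by 0.56 on the log2 scale (limma adjusted p = 4.23e-05). Pex16, needed for peroxisomal membrane assembly, was higher by 0.42 (limma adjusted p = 0.000269) and Pex6, an ATPase that recycles the import receptor, by 0.28 (limma adjusted p = 0.000497). Pex5, the receptor that imports catalase, was named after its value was seen and had a log2 fold change of -0.20 (limma adjusted p = 0.00286). With quantile normalization 5 of the biogenesis genes were higher and 4 lower, beside 30.8% and 35.6% of all tested genes. Without Grx2-/- replicate 1 and Grx2+/+ replicate 2, 4 of the list were lower.

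Peroxisomal oxidases and fatty acid oxidation genes included 14 tested members, of which 10 were higher, 2 lower and 2 not called. The list also counted Xdh, a mainly cytosolic oxidase named after its value was seen. Xdh was among the 10 higher, with a log2 fold change of 0.61 (limma adjusted p = 0.00109). Over all tested genes 42.7% were higher and 24.6% lower. Of the 2 lower, Ehhadh averaged 0.832 FPKM in Grx2-/- cells and 1.29 FPKM in Grx2+/+ cells. Ehhadh, named after its value was seen, thus passed the minimum only through Grx2+/+ libraries. The list's median log2 fold change was 0.27 against 0.09 over all tested genes. With quantile normalization 7 were higher and 4 lower, beside 30.8% and 35.6% of all tested genes. The 2 lower calls became 0 without Grx2+/+ replicate 1, and 1 without Grx2-/- replicate 1, Grx2-/- replicate 3, Grx2+/+ replicate 2 or Grx2+/+ replicate 3. Scp2, a sterol carrier and thiolase, averaged 38.5 ± 0.309 FPKM in Grx2-/- cells and 27.7 ± 0.0968 FPKM in Grx2+/+ cells (SD, n = 3 each; log2 fold change 0.46, limma adjusted p = 4.29e-06). For Abcd3, a peroxisomal importer, the log2 fold change was 0.47 (limma adjusted p = 0.000119). None of the 14 had a log2 fold change as large as the 1.06 of Cat.

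A further list held oxidases that make superoxide or hydrogen peroxide outside the peroxisome, without Xdh. Of its 9 tested genes, 5 were higher, 2 lower and 2 not called, beside 42.7% higher and 24.6% lower of all tested genes. The list's median log2 fold change was 0.41 against 0.09 over all tested genes. Cyba and Ncf1, a membrane and a cytosolic subunit of the phagocyte NADPH oxidase, had log2 fold changes of 1.18 and 1.24 (limma adjusted p = 9.03e-07 and 1.84e-05). They stood beside the higher macrophage markers given above. Ero1a, the oxidase of the endoplasmic reticulum that forms disulfides and releases hydrogen peroxide, fell by 1.03 on the log2 scale (limma adjusted p = 6.06e-07). Of 11 tested enzymes other than catalase that remove peroxides, 7 were higher, 2 lower and 2 not called, beside the same 42.7% and 24.6%. With quantile normalization 4 were higher and 3 lower, beside 30.8% and 35.6% of all tested genes. The median log2 fold change of these enzymes was 0.17 against 0.09 over all tested genes. Only 1 was lower without Grx2-/- replicate 1, Grx2-/- replicate 3 or Grx2+/+ replicate 2. Prdx1, a cytosolic peroxiredoxin, averaged 907 ± 27.4 FPKM in Grx2-/- cells and 383 ± 7.04 FPKM in Grx2+/+ cells (SD, n = 3 each), which is more transcript per length than Cat in both groups. Gpx4, which reduces lipid peroxides, was higher by 0.41 on the log2 scale, and the secreted Gpx3 averaged 6 ± 1.9 FPKM in Grx2-/- cells and 144 ± 13.5 FPKM in Grx2+/+ cells (SD, n = 3 each; log2 fold change -4.40, limma adjusted p = 2.42e-07). Of the secreted enzymes, Sod3 and Gpx3 thus moved in opposite directions.

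Transcription factors and regulators known to act on these genes in mammalian cells made up the last list. Of 17 tested, 11 were higher, 3 lower and 3 not called, beside 42.7% higher and 24.6% lower of all tested genes. The list's median log2 fold change was 0.17 against 0.09 over all tested genes. With median-of-ratios scaling 7 of the list were higher and 3 lower, beside 33.4% and 33.1% of all tested genes. With quantile normalization 7 of the list were higher and 4 lower, beside 30.8% and 35.6% of all tested genes. Epas1, the hypoxia-inducible factor HIF-2 alpha, averaged 1.21 ± 0.0933 FPKM in Grx2-/- cells and 7.86 ± 0.634 FPKM in Grx2+/+ cells (SD, n = 3 each; log2 fold change -1.998, limma adjusted p = 1.4e-07). Hif1a, its relative, had a log2 fold change of -0.60, and Nfkb1, a subunit of the factor through which cytokines induce Sod2, of 0.44 (limma adjusted p = 3.49e-06 and 1.82e-05). For their roles, and after their values were seen, some others are given. Nfe2l2, which encodes NRF2, had a log2 fold change of 0.33 (limma adjusted p = 0.000396). Keap1, which encodes the inhibitor of NRF2, was also higher, by 0.37 on the log2 scale (limma adjusted p = 4.7e-05). The log2 fold change of Sirt3, the mitochondrial deacetylase that activates Sod2, was 0.50 (limma adjusted p = 0.00132). Foxo3, which drives Sod2 and Cat, was not called at -0.05 (limma adjusted p = 0.567). Its relatives differed: Foxo1 was called higher at 0.38 and Foxo4 lower at -0.22 (limma adjusted p = 0.00283 and 0.01). Foxo6 fell below the minimum for testing.

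**Figure D4:**
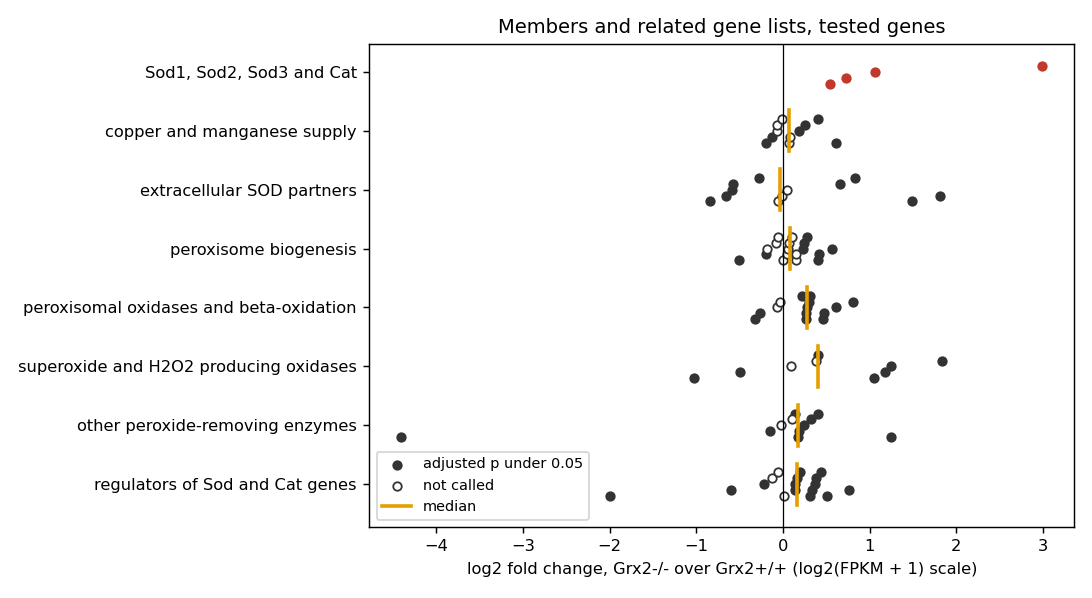
Log2 fold change (horizontal axis) of the 4 members in red and of every tested gene of the 7 related lists, filled where limma's adjusted p was under 0.05 and open where it was not, with each list's median as a bar. List medians run from -0.03 to 0.41, and each list has genes on both sides of 0.

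By Pearson correlation of log2(FPKM + 1) over the 6 libraries, the 5096 genes with a mean of at least 10 FPKM were ranked by likeness to each member. The nearest to Sod1 were Wwp1, Clic1 and Tpm3. For Sod2 they were Nup43, Myof and Xxylt1, and for Sod3 they were Prelp, Cxcl14 and Comp, which encode a leucine-rich repeat protein of the matrix, a chemokine and a cartilage matrix protein. Nid2, a basement membrane protein, Mrgprf and Npdc1 were nearest to Cat. All 12 correlations were above 0.998, yet they mainly restate the difference between the groups, since 26.6% to 29% of the ranked genes reached 0.95 with a given member. With 6 libraries in 2 groups the values are a description and carry no test.

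The result for the members held under every setting tried. Over 17 other settings the log2 fold change ran from 0.44 to 0.61 for Sod1, 0.60 to 0.78 for Sod2, 2.87 to 3.10 for Sod3 and 0.93 to 1.08 for Cat, and each remained called. The split of calls over all genes did depend on scaling. Median-of-ratios scaling called 33.4% of tested genes as higher and 33.1% as lower, and quantile normalization 30.8% as higher and 35.6% as lower, against the 42.7% and 24.6% given above. Quantile normalization lowered the median log2 fold change of all tested genes by 0.11. Relative to that median the members stood at 0.53 for Sod1, 0.63 for Sod2, 2.89 for Sod3 and 0.96 for Cat.

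**Figure D5:**
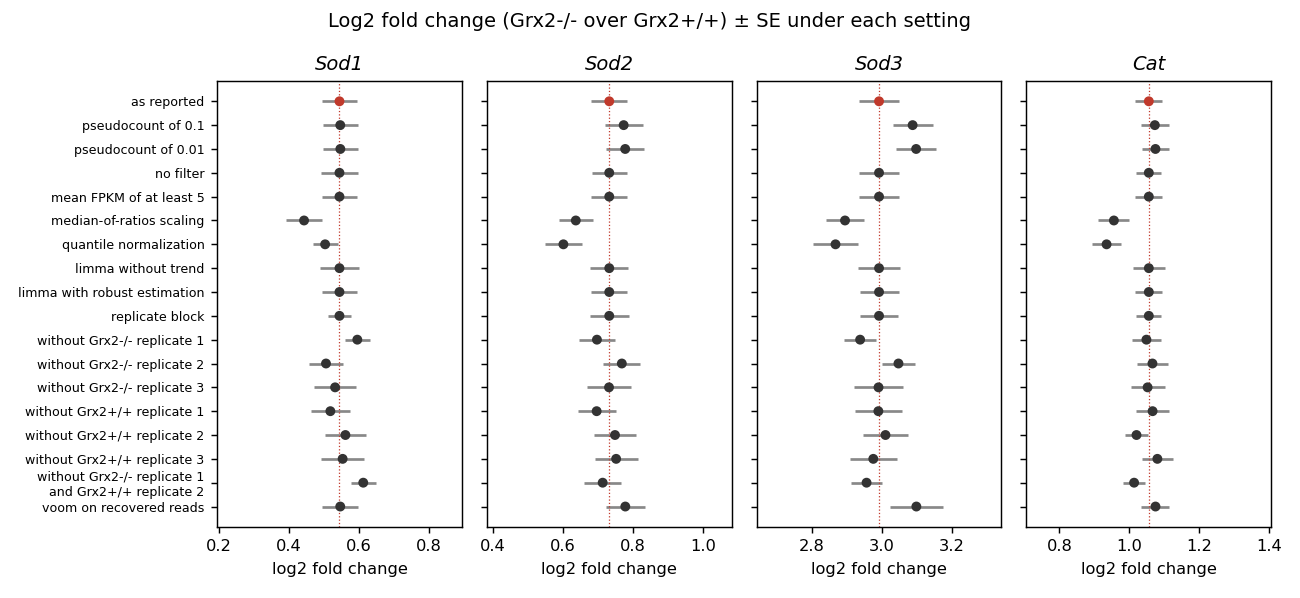
Log2 fold change, Grx2-/- over Grx2+/+, of each member (points, with SE as bars) as reported in red and under 17 other settings in black; the dotted line marks the reported value. Each panel spans 0.7 log2 units, and the values stay above 0 throughout, the lowest being 0.44 for Sod1.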

How the data were processed

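Total RNA was isolated with TRIzol and sequenced from VAHTS Universal V6 libraries, per the labels' protocols. The authors deposited FPKM values of 22984 genes in 1 column per library; the submitters' processing notes name build GRCm39 and the tools HISAT2, HTSeq and R 3.2.0. Annotation, filters and strand setting: not given in the sources used here. Antisense and overlapping genes may therefore share reads.

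Whole reads were worked back from the steps between FPKM values for 22982 genes (99.99%, tolerance 1e-06 reads). They gave the depths, and counting errors derived from them cover counting error only. FPKM was used without further scaling. Replicates differed by more than sampling noise in each pair. limma 3.58.1 in R 4.3.3 (trend, genotype only) was fitted to log2(FPKM + 1) of the 11083 genes with a mean of at least 1 FPKM. Tests were two-sided, with a Benjamini-Hochberg threshold of 0.05. The fit was also run on simulated reads with far fewer changed genes, which cannot show its error rate in these data. Named genes are the members, Glrx2, the 3 members of each of 7 related lists with the smallest p, and the 3 genes most like each member by correlation; others are marked where named, and 1 gene the rule allows is not reported here. Members, lists and alternatives were chosen with earlier results of these data known. Alternatives covered the pseudocount, filter, scaling, variance model, replicate block, left-out libraries and voom on recovered reads. Promoter sequences came from RefSeq, GRCm38.p6, another build than the authors'.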

Additional observations from a re-analysis of the deposited data

How the results depend on the processing

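No call or direction of Sod1, Sod2, Sod3 or Cat changed under the 17 alternatives, with a highest limma adjusted p of 0.000582, for Sod1 without the filter on low values. Leaving out 1 library moved Sod1 between 0.51 and 0.59, Sod2 between 0.70 and 0.77, Sod3 between 2.94 and 3.05 and Cat between 1.02 and 1.08. Called genes numbered 7465, and 6556 to 7542 without 1 library, of about as many tested. Without the filter 9113 of 22984 were called, and with a mean of at least 5 FPKM 5261 of 7432. Whether equal replicate numbers pair the libraries is not given and was not settled by the values. Deviations from the group means correlated at 0.107, 0.124 and 0.0199 for equal numbers 1 to 3. For unequal numbers the correlations ran from -0.129 to 0.0598. With the replicate block 7562 genes were called, and the log2 fold changes of Sod1, Sod2, Sod3 and Cat stayed at 0.54, 0.73, 2.99 and 1.06.

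Makeup depended on division by gene length. In plain reads Sod1 held 37.3% of the summed dismutases in Grx2-/- cells and 61.8% in Grx2+/+ cells, Sod2 18.1% and 25.6%, and Sod3 44.7% and 12.6%. The ratio of Cat to the sum was 0.469 in Grx2-/- cells and 0.541 in Grx2+/+ cells. Those shares follow from the construction, since reads scale with length. Depth did not limit the members, whose counting error was at most 3.27% per library.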

Other observations

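Some genes of the related lists fell below the minimum mean of 1 FPKM and were not tested. Aox1, an aldehyde oxidase that can release superoxide and hydrogen peroxide, averaged 1.08 ± 0.128 FPKM in Grx2-/- cells and 0.342 ± 0.0317 FPKM in Grx2+/+ cells (SD, n = 3 each). Slc39a8, a metal importer that carries manganese, averaged 1.11 ± 0.0585 FPKM in Grx2-/- cells and 0.512 ± 0.0657 FPKM in Grx2+/+ cells. Nox4, the NADPH oxidase that makes mainly hydrogen peroxide, averaged 0.711 ± 0.0513 FPKM in Grx2-/- cells and 1.16 ± 0.0866 FPKM in Grx2+/+ cells. These 3 were chosen after their values were seen. The regulators Ppargc1a and Ppara stayed under 0.2 FPKM in the mean of either group.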
